A study of Mus musculus with 2 samples.

Results

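C1q-positive macrophages of Hepa1-6 tumours were examined as 133 cells, 53 in the control library and 80 in the CD147-LYTACs library, out of 15267 cells that passed the quality filter. They were chosen by their own transcripts. The quality filter asked for 500 or more UMIs (unique molecular identifiers, each standing for 1 captured transcript), 300 or more genes detected and a mitochondrial share no greater than 15%. A member then needed at least 1 UMI of Lyz2, Csf1r or Cd68, none of Cd3e, Cd3d, Cd3g or Csf3r, at most 2 of the keratins Krt8 and Krt18, and at most 1 of Gpnmb, Trem2 and Ctsk together. Its C1qa, C1qb and C1qc UMIs had to sum to at least 3. The levels of these genes are therefore a description of the choice and are not results.

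Hepa1-6 is a mouse hepatoma line, and the tumours it formed were split by flow cytometry into CD45- and CD45+ cells that were mixed again at 1 to 3 for droplet sequencing. The control group is described only as control. The other group received CD147-LYTACs at 40 mg/kg every 3 days for 4 doses, with harvest on day 12. A LYTAC (lysosome-targeting chimaera) couples a binder of a surface or secreted protein to a ligand of a receptor that carries it into lysosomes. CD147 (basigin, gene Bsg) is a chaperone of the lactate carriers Slc16a1 and Slc16a3. The route is given as intraperitoneal or intravenous, and the mouse strain, age and number of tumours per library are not given in the sources used here. Each group is 1 library, so no test between the groups is possible and every interval below is a 95% interval for counting error only.

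C1q, the recognition molecule of the classical complement pathway, is assembled from chains encoded by C1qa, C1qb and C1qc, and tissue macrophages are its main source. C1q-positive macrophages of tumours are known for antigen presentation on MHC class II, clearance of dead cells and secretion of chemokines. Ccl8 and Ccl24 encode chemokines that draw monocytes, T cells and eosinophils and are known from tissue-resident and alternatively activated macrophages. Lipid-associated macrophages, marked by Gpnmb and Trem2, are a neighbouring state with lysosomal and lipid-handling transcripts.

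The C1q genes lie side by side on the minus strand of chromosome 4 in GRCm38, C1qb at chr4:136880129-136886187, C1qc at chr4:136889804-136893065 and C1qa at chr4:136895917-136898803. Ccl8 lies at chr11:82115185-82116799 on the plus strand and Ccl24 at chr5:135569937-135573049 on the minus strand. Of 8 genes that the results turn on, 5 had an entry in the RefSeq promoter table (GRCm38.p6). The 250 bases before the start are shown 5′ to 3′ for C1qb, because its product chose the cells, for Ccl8, the marker with the greatest difference between libraries, and for H2-Aa and H2-Eb1, which stand for the MHC class II genes. Capitals mark, on either strand, TGCTGA (letters shared with sites of Maf factors) and GAGGAA (a core of PU.1 sites) in C1qb, TGCTGA and TATAAA (the TATA box) in Ccl8, and CTGATTGG (the Y box of MHC class II promoters) in the other two.
C1qb, chr4:136886201-136886450, minus strand: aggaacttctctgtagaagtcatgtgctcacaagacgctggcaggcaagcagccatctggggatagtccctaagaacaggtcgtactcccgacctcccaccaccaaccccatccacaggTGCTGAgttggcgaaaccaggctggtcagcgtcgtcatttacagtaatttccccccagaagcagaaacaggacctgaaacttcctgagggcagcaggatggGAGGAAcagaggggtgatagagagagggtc
Ccl8, chr11:82114935-82115184, plus strand: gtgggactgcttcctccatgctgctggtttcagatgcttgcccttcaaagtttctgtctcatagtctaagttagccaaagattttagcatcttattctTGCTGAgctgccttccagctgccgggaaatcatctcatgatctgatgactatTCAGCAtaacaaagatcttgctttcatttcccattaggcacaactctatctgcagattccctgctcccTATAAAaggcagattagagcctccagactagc
H2-Aa, chr17:34287824-34288073, minus strand: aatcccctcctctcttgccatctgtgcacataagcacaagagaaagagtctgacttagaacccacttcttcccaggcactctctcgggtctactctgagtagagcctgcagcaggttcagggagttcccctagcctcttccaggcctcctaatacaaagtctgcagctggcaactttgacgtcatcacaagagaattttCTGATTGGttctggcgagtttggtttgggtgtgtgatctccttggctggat
H2-Eb1, chr17:34305617-34305866, plus strand: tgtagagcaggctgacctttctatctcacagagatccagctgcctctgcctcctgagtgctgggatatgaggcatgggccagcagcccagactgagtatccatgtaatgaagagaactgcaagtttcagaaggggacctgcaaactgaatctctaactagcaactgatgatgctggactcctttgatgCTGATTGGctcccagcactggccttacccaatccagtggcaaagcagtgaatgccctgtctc
In C1qb the TGCTGA match began 131 bases and the GAGGAA match 30 bases before the start. In Ccl8 the TGCTGA matches began 152 and 100 bases before the start, TATAAA 32 bases before it, and a GAGGAA match left in lower case 240 bases before it. The Y box began 51 bases before the start in H2-Aa and 62 bases before it in H2-Eb1, where it overlaps a TGCTGA match. Of 32851 windows of this length, 3.83% hold CTGATTGG, 16.1% TGCTGA, 23.3% GAGGAA and 12.4% TATAAA. A match is a description of the letters and not a site shown to be used.

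The control and CD147-LYTACs libraries held 8150 and 9219 deposited cells, with 7091 control and 8176 treated cells past the filter. The libraries share 24 barcodes, of which 1 belongs to a member. The members summed to 351720 UMIs in the control library and 476609 in the CD147-LYTACs library, with medians of 3598 and 4058.5 UMIs per cell, and the deepest member of each gave 6.66% and 7.45% of those UMIs. Of the quality cells with at least 3 C1q UMIs (180 control, 454 treated), 42 and 90 were left out for a Cd3 UMI alone, 17 and 8 for Csf3r alone, and 11 and 72 for the Gpnmb, Trem2 and Ctsk limit alone. Just outside the C1q limit stood 6 control and 12 treated cells with 2 UMIs, and just inside it 9 and 6 cells with 3 UMIs. Just outside the lipid gene limit stood 2 and 10 cells with 2 UMIs, and inside it 5 and 20 members with 1 UMI.

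The share of these macrophages depended on the total it was taken from. They made up 17.4% (13.3 to 22.2, exact Clopper-Pearson interval, 53 of 304) of gated myeloid cells in the control library and 8.75% (7.0 to 10.8, 80 of 914) in the CD147-LYTACs library, a ratio of 0.502. Gated myeloid cells are those that met every condition except the C1q and lipid gene limits. Of all quality cells, a total that holds the CD45- and CD45+ cells as mixed again, they made up 0.747% (0.560 to 0.977) and 0.978% (0.777 to 1.22). This is the opposite order, with intervals that overlap. Of cells with a UMI of Ptprc (the gene of CD45) and at most 2 keratin UMIs, they made up 0.879% (0.632 to 1.19, 41 of 4662) and 1.26% (0.969 to 1.61, 63 of 5002). These intervals overlap too. Of gated cells with at least 3 C1q UMIs, the members were 82.8% (53 of 64) and 52.6% (80 of 152), since 11 control and 72 treated cells of that kind exceeded the lipid gene limit. The gated total itself differed: 118 control and 486 treated gated cells fell in none of the compared classes, and 12.7% and 40.7% of them held at least 10 UMIs of the neutrophil genes S100a8 and S100a9. With every gated cell of 10 or more such UMIs left out, the members' shares were 18.5% (14.2 to 23.5) and 11.2% (8.95 to 13.8).

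**Figure D1:**
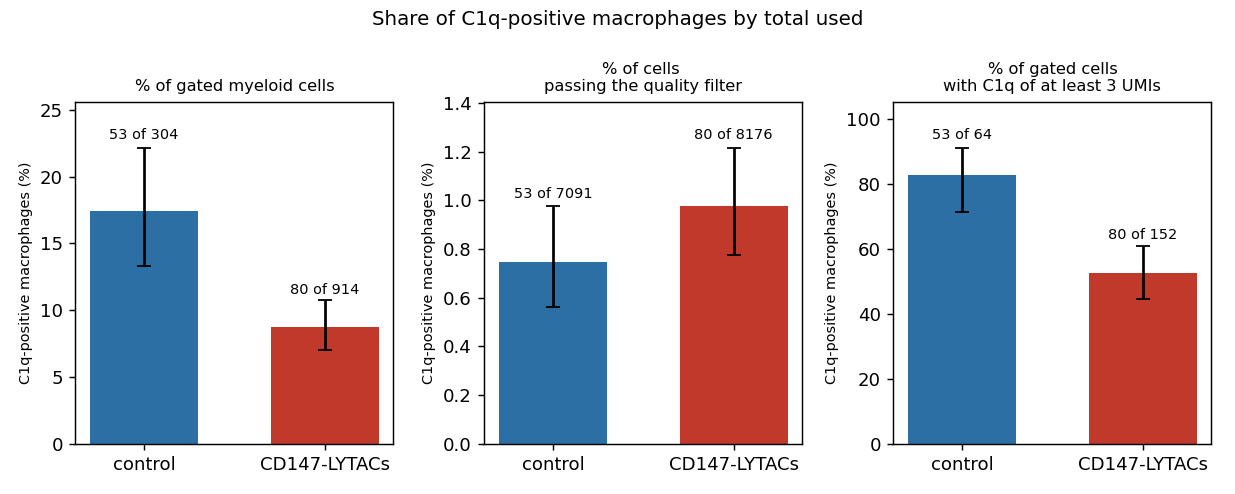
Percentage of cells that are C1q-positive macrophages (y axis) in the control and CD147-LYTACs libraries for 3 totals, with exact 95% binomial intervals and the counts above the bars. The share is lower in the CD147-LYTACs library among gated myeloid cells and higher among all quality cells, where the intervals overlap.

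The 3 chains of C1q were found together in most members. All 3 had a UMI in 34 of 53 control and 45 of 80 treated members, and 1 control and 7 treated members met the rule with a single chain. C1qa gave 42.8% of C1q UMIs in the control library and 37.9% in the CD147-LYTACs library, C1qb 34.7% and 42.6%, and C1qc 22.5% and 19.5%. The summed C1q level per cell ranged from 3 to 276 UMIs in control members (median 11) and from 3 to 107 in treated members (median 7). With each cell thinned to 2000 UMIs, C1qa had a UMI in 83.7% of 43 control and 68.7% of 67 treated members, with 10 and 13 shallower members left out (unthinned, 50 of 53 and 64 of 80). In T cells, which do not make C1q, the thinned share was 1.63% and 4.39% at unthinned medians of 6770.5 and 7118 UMIs. In hepatoma cells it was 0.158% and 0.426% at medians of 48583 and 45592.

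Lyz2 (lysozyme), a gene of the rule, stood at 2102 UMIs per 1000000 of the members' UMIs (CPM) in the CD147-LYTACs library. In the control library it stood at 2260.3 CPM. Csf1r, the receptor of the macrophage growth factor and also a gene of the rule, stood at 233 and 199 CPM. Both levels describe the choice. Beyond the rule, the members carried the macrophage genes Adgre1 (F4/80) at 187 and 111 CPM and Mrc1 (the mannose receptor) at 334 and 284. No Kupffer cell gene was abundant enough to count, and the 14 genes of that list summed to 222 and 262 CPM. Clec4f, Vsig4, Marco and Cdh5 had no UMI in any member. Marco had 16 treated and 25 control UMIs in the lipid-associated cells with C1q described below. The rule limited only 3 lipid-associated genes, so the members are not free of other such transcripts. Another 27 genes known from lipid-associated macrophages summed to 31248 CPM in treated and 28045 CPM in control members, led by Fth1 (16552 and 14460.4), Lgals3 (2140.1 and 1982) and Mmp12 (1592 and 1686). That sum does not mark a lipid-associated profile by itself. It was 25965 and 12737 CPM in monocytes of the gate, and 66747 and 52491 in lipid-associated cells with C1q, both described below.

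Ccl8 and Ccl24, the chemokines listed with these macrophages, were each present in a minority of members. Ccl8 had a UMI in 20 of 53 control and 33 of 80 treated members, and Ccl24 in 20 and 23. Both had one in 7 control and 9 treated members, Ccl8 alone in 13 and 24, Ccl24 alone in 13 and 14. The share with Ccl8 among members with Ccl24 (7 of 20 and 9 of 23) was close to that among all members (20 of 53 and 33 of 80). Mmp12, which encodes macrophage elastase, went with Ccl24: 17 of the 20 control and 19 of the 23 treated members with Ccl24 held it, against 6 of 20 and 9 of 33 members with Ccl8. Pf4, which encodes platelet factor 4, had a UMI in 12 of 20 control and 26 of 33 treated members with Ccl8. Thinned to 2000 UMIs, Ccl8 was found in 27.9% and 32.8% of members, in 0.873% and 3.45% of T cells, and in 0.948% and 0.804% of hepatoma cells. The share in T cells, read as background, was thus also higher in the CD147-LYTACs library, and below that of the members in both.

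**Figure D2:**
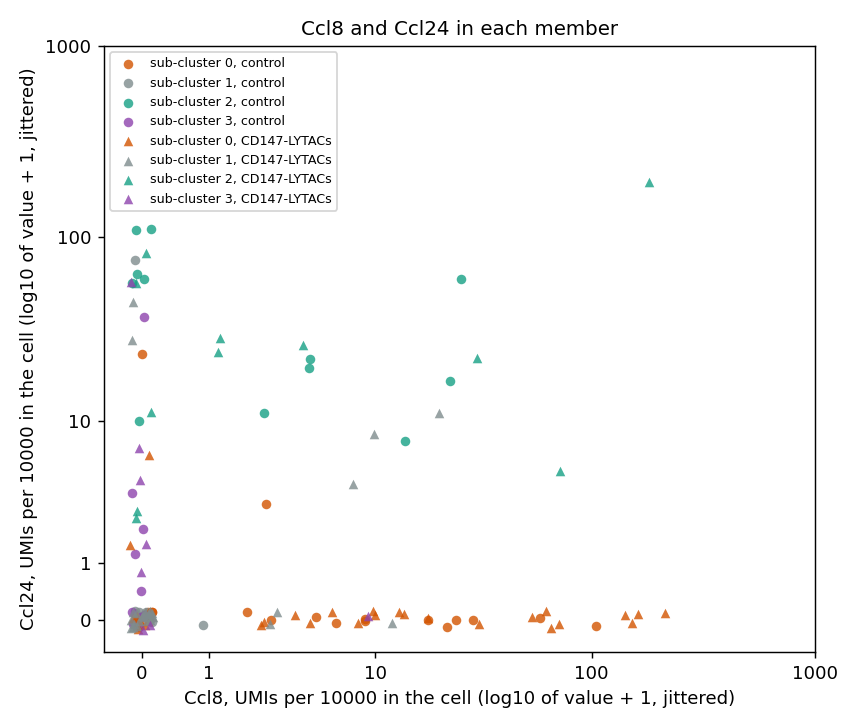
Ccl8 (x axis) against Ccl24 (y axis) in UMIs per 10000 of the cell on a log10 scale of value plus 1, 1 point per member with jitter, circles for control and triangles for CD147-LYTACs, coloured by sub-cluster. Most points lie on an axis, and 7 control and 9 treated members hold both transcripts.

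Between the libraries, 1569 genes were counted (at least 100 UMIs over all members and 50 CPM in 1 library), and the comparison asks what differs in these cells under CD147-LYTACs. Past 1.5-fold with an interval that leaves out no difference, 135 were higher in the CD147-LYTACs library (8.6%) and 163 lower (10.4%), and the median log2 ratio over all was 0.03. These percentages are the background for each gene group below. The members' sums weigh deep cells, and the 18 members of a group with greater depth (sub-cluster 3, described later) gave 39.2% of control and 21.8% of treated UMIs.

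**Figure D3:**
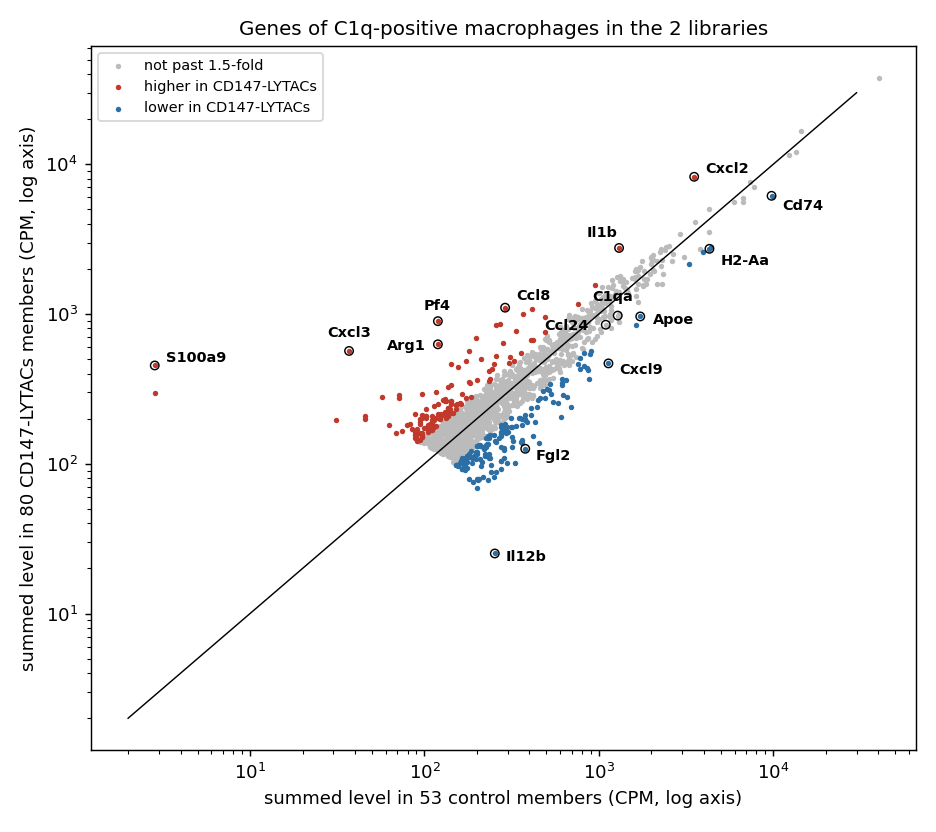
Summed level of each of 1569 genes in control members (x axis) and CD147-LYTACs members (y axis), both in CPM on log axes, with genes past 1.5-fold in red (135 higher) and blue (163 lower) and the line of equal level. Cxcl3, Pf4, Arg1 and Ccl8 lie above the line, Cd74, H2-Aa, Cxcl9 and Fgl2 below it, and C1qa and Ccl24 within 1.5-fold.

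Chemokine transcripts were higher in treated members. Of 16 chemokines counted, 8 were higher and 2 lower, with a median log2 ratio of 0.71 beside 0.03 over all genes, and the 23 listed chemokines summed to 18642 CPM in the CD147-LYTACs library and 11012 in the control library. Ccl8 stood at 1102 CPM (1009 to 1199.9) in treated and 290.0 (236 to 352) in control members, a log2 ratio of 1.93 (1.62 to 2.25). Its neighbours on chromosome 11, the monocyte attractants Ccl2 and Ccl7, stood at 849.8 against 259 CPM (1.72) and 1005 against 367 CPM (1.45). The neutrophil attractant Cxcl2 was the most abundant, at 8242 against 3517 CPM (1.23), and was found in 75 of 80 treated and 41 of 53 control members. Cxcl3, a relative of Cxcl2, was at 567 CPM in 37 treated members and at 37.0 CPM in 6 control members (3.94). Pf4 stood at 896 against 119 CPM (2.91, 2.45 to 3.40), in 42 of 80 and 21 of 53 members. Ccl3 (1.49) and Cxcl1 (0.88) were also higher.

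The background of these chemokines in other cells was higher in the CD147-LYTACs library too. Thinned to 2000 UMIs, Cxcl2 was found in 74.4% of control and 92.5% of treated members, beside 4.70% and 22.5% of T cells. Pf4 was found in 20.9% and 44.8% of members, beside 0.452% and 4.99% of T cells. Cxcl3 was found in 6.98% and 44.8% of members, beside 0.904% and 7.13% of T cells and 10.8% and 13.7% of hepatoma cells. The members' shares thus lay above those of T cells in both libraries, and that of Cxcl3 in control members lay below the hepatoma cells. Monocyte genes were also higher over all members: the 18 listed summed to 3277 CPM in treated and 2041 in control members (0.68). Within sub-clusters 0 to 3, described later, the monocyte list stood at 0.16, 0.39, -0.19 and 0.46, with intervals that reach 0 in sub-clusters 0 and 2. The chemokine list stood there at 0.91, 0.56, 0.16 and 0.29. In members with at least 10 C1q UMIs, the chemokine ratio was 0.27 in place of 0.76, the monocyte list was at -0.023 and the inflammatory list at -0.09 in place of 0.38. The part of free RNA and of monocyte transcripts in the chemokine values was not tested.

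The chemokines that went the other way attract T cells. Cxcl9, induced by interferon-gamma, was at 468 CPM in treated and 1134 in control members (log2 ratio -1.28, -1.52 to -1.04, and -0.40 without members holding markers of other lineages, described below), and Ccl5 at 426 and 870.0 CPM (-1.03). Cxcl10, a further ligand of the receptor of Cxcl9, stood at 136 and 190.5 CPM (-0.48) with an interval that reaches 0.03. Ccl24 stood at 848 (767 to 934) and 1095 (988 to 1209.6) CPM, -0.37, short of 1.5-fold. Averaged over cells instead of summed, the log2 ratio of Ccl7 was 0.46 and that of Ccl2 0.84.

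MHC class II transcripts were lower in treated members. All 10 counted genes of antigen presentation on class II lay below 0, 6 of them past 1.5-fold and none higher, with a median log2 ratio of -0.63. The list summed to 17828 CPM (17451 to 18211) in the CD147-LYTACs library and 27109.6 (26568 to 27659) in the control library. Cd74, the invariant chain that guides class II molecules to endosomes, stood at 6152 and 9766 CPM (-0.67, -0.74 to -0.60). The class II chain genes followed with H2-Aa at 2723 and 4302 CPM (-0.66), H2-Ab1 at 2812 and 4393 (-0.64) and H2-Eb1 at 2589 and 3966 (-0.62). The costimulatory ligands Cd86 (466 and 756 CPM, -0.70) and Cd80 (176 and 313 CPM, -0.83) were also lower. The peptide-loading gene H2-DMa (-0.56), the protease Ctss (-0.24) and the reductase Ifi30 (-0.20) did not reach 1.5-fold. In single cells, the median of H2-Ab1 was 14.8 UMIs per 10000 in treated and 31.8 in control members, and that of Cd74 36.8 and 76.2.

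Over all members, interferon response genes past the fold were all lower in the CD147-LYTACs library. Of 15 counted interferon-gamma genes, none was higher and 4 lower, with a median of -0.38. They included Cxcl9 and the GTPases Gbp7 (101 against 162 CPM, -0.69) and Iigp1 (98.6 against 154 CPM, -0.64). Acod1, which makes itaconate, stood at 785 and 643 CPM (0.29) and Cd274 (PD-L1) at 888 and 972 CPM (-0.13), neither past the fold. Of 7 type I interferon genes, 2 were lower, Isg15 at 436 against 859 CPM (-0.98) and Rsad2 at 447 against 822 CPM (-0.88), and the median was -0.10.

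Among genes of macrophage identity, 4 of 18 were higher and 3 lower, and the list summed to 10663 and 10525 CPM. The lipopolysaccharide co-receptor Cd14 stood at 955 against 492 CPM (0.96), Itgam (CD11b) at 204 against 102 (0.99), Adgre1 at 0.75 and Ms4a6c at 0.72 on the log2 scale. The apolipoprotein Apoe (963 against 1726 CPM, -0.84) and the macrophage factor Maf (122 against 185 CPM, -0.60) were among the lower. Mgl2, a lectin of alternatively activated macrophages and dendritic cells, was at 138 against 364 CPM (-1.39), and in 19 of 80 and 29 of 53 members. Of 19 counted macrophage transcription factors, 7 were lower and none higher, among them Runx3 (-1.28), Mitf (-1.20), Klf4 (-0.75), Rel (-0.74) and Maf. Averaged over cells, Maf stood at 0.14. Spi1, which encodes PU.1, stood at 325 and 347 CPM (-0.09).

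Inflammatory and tissue-remodelling genes were mixed. The cytokines Il1b (2759 against 1305 CPM, 1.08) and Il1a (325 against 136 CPM, 1.25) were higher, Tnf stood at 332 and 293 CPM (0.18), and Il12b was lower (-3.33) but came from 2 control cells and 1 treated cell. Arg1, which encodes arginase, stood at 627 CPM in 24 treated members and 119 CPM in 7 control members (2.39), with 66.7% of the control UMIs in 1 cell. Without members holding markers of other lineages, described below, Arg1 stood at 0.20. The protease Ctsl (692 against 196 CPM, 1.82), the fatty acid carrier Fabp5 (1074 against 415, 1.37), the matrix glycoprotein Spp1 (302 against 117, 1.37), the matrix protein Tgfbi (770.0 against 335, 1.20) and the scavenger receptor Msr1 (262 against 131, 1.00) were higher. Lipoprotein lipase, Lpl, was lower (189 against 387 CPM, -1.03). Of 22 counted genes of the lysosome, 1 was higher (Ctsl) and 1 lower, with a median of 0.03. Averaged over cells, Fabp5 stood at 0.66 and Msr1 at 0.31.

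For Bsg, the gene of the targeted protein, no difference beyond counting error was detectable over all members. It stood at 180.4 CPM (144 to 223) in treated and 185 (143 to 236) in control members, a log2 ratio of -0.03 (-0.52 to 0.45), and was found in 45 of 80 and 26 of 53 of them. A LYTAC acts on the protein, which was not measured. Of 12 counted genes of CD147 and lactate handling, Slc16a3 was lower (103 against 173 CPM, -0.75) and the hyaluronan receptor Cd44 higher (1167 against 762 CPM, 0.61), and Ldha, which makes lactate, stood at 451 and 418 CPM (0.11). Averaged over cells, Slc16a3 stood at -0.07. Slc16a1 was too scarce to count (31.5 and 39.8 CPM). Of 12 glycolysis genes, 2 were lower, Pfkp (183 against 361 CPM, -0.98) and the hexokinase Hk2 (273 against 461, -0.76), with a median of -0.17. Of receptors that can shuttle cargo to lysosomes, 4 were counted and none was past the fold, among them M6pr (-0.16), Lrp1 (0.38) and Mrc1 (0.23).

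**Figure D4:**
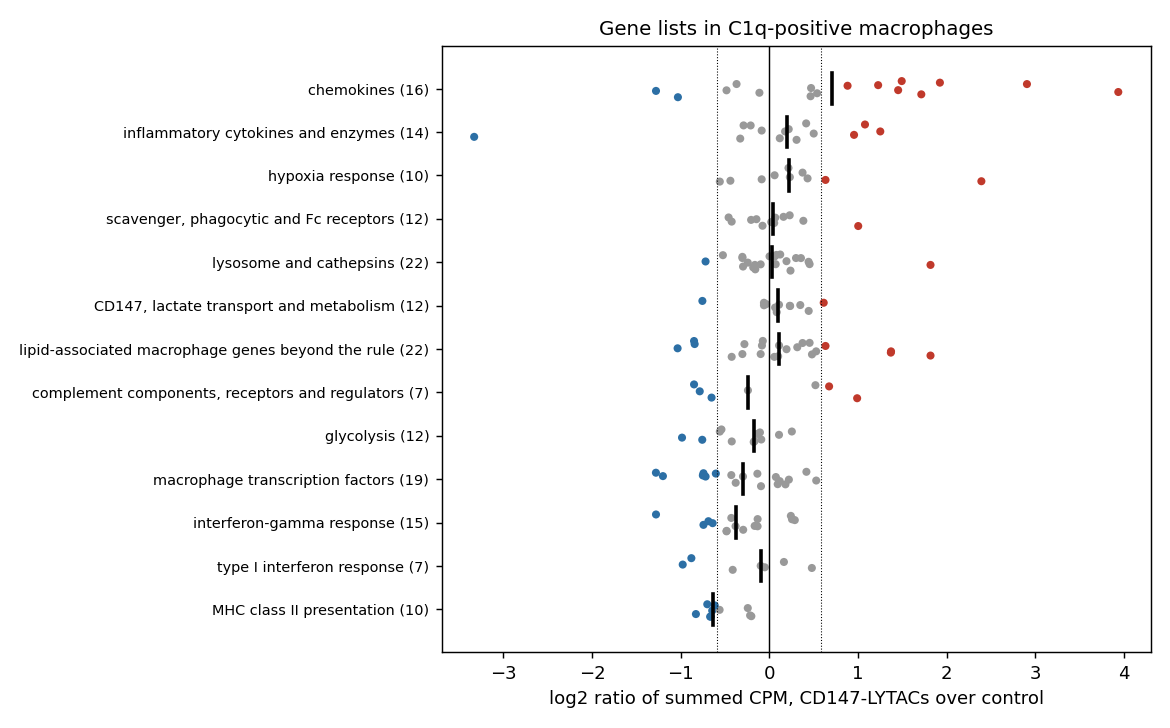
Log2 ratio of summed CPM, CD147-LYTACs over control (x axis), for the counted genes of 13 lists (y axis, number counted in brackets), with list medians as black bars, genes past 1.5-fold in red or blue and dotted lines at 1.5-fold. The chemokine median lies at 0.71 and that of MHC class II presentation at -0.63, with all 10 genes below 0.

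Several of the greatest ratios rested on few cells. S100a9 (453 against 2.84 CPM) and S100a8 (296 against 2.84 CPM) had the greatest log2 ratios, 7.32 and 6.70, and 80.6% and 70.2% of their treated UMIs came from 1 cell. Saa3 (2.21), Specc1 (1.96) and Soga1 (2.13) had 75%, 64.4% and 63.2% of their treated UMIs in 1 cell. By contrast Pdpn, which encodes podoplanin (197 against 31.3 CPM, 2.66), the lectin Clec4d (287 against 71.1, 2.02), the calcium-binding S100a4 (462 against 142, 1.70) and the protease inhibitor Slpi (281 against 56.9, 2.31) were found in 24 to 44 treated members. Slpi still had 32.1% of treated and 40% of control UMIs in 1 cell. Without members holding markers of other lineages, described below, Slpi stood at 0.67. S100a4 had 38% of control UMIs in 1 cell, and stood at 0.61 in members with at least 10 C1q UMIs. Among the smallest ratios, Fgl2, a secreted fibrinogen-like protein, was found in 27 of 80 treated and 36 of 53 control members (126 against 378 CPM, -1.59) with 7.52% of control UMIs in the top cell. Serpinb9 (-1.56), which inhibits granzyme B, the protein C receptor Procr (-1.46), the signalling regulator Rgs2 (-1.45) and Gdf15 (-1.40), a stress-induced cytokine, were also among the 15 smallest. For Arhgap15 (-1.72), Gm4951 (-1.71), Trerf1 (-1.61), Glis3 (-1.57), H2-M2 (-1.57), Tex14 (-1.56) and Procr, 1 cell gave 32.9% to 46.2% of control UMIs. For H2-M2, 1 cell also gave 41.7% of treated UMIs. Snx24 (-1.54), Wipf1 (-1.53) and Rap2a (-1.52) complete the 15 smallest, with Il12b.

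Markers of other cell types moved with some of these groups. The 12 neutrophil markers summed to 1383 CPM in treated and 643 in control members, and Lcn2, Ltf and Ly6g had no UMI in them. Of the list's 226 control UMIs, 205 came from sub-cluster 3, described below. There, over both libraries, S100a9 stood at 8.27 CPM and Il1r2 at 1207. The control sum was thus mostly not S100a8 and S100a9, which had 1 control UMI each. At least 2 UMIs of S100a8 and S100a9 were held by 5 treated and 0 control members. Without those 5 members the summed chemokine log2 ratio was 0.67, beside 0.76 with them, and that of MHC class II -0.56, beside -0.60. The 14 dendritic cell markers summed to 871 and 873 CPM. Without members that held at least 2 UMIs of Ccr7, Flt3, Clec9a, Xcr1 and Zbtb46, the chemokine ratio was 0.81 and the MHC class II ratio -0.75, and 88 genes were lower in place of 163. Without members that held at least 2 UMIs summed over the T, NK, B, neutrophil and mast cell markers, which left 28 treated and 27 control members, the chemokine ratio was 0.50 and the MHC class II ratio -0.36, and Ccl24 stood at -2.51 in place of -0.37. The 14 T cell markers, from which the rule removed only the Cd3 genes, summed to 319 and 287 CPM, with at least 2 UMIs in 29 of 80 and 17 of 53 members. Il7r alone gave 72 of the 152 treated and 72 of the 101 control UMIs of that list. The filter on markers of other lineages counts these UMIs too.

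Clustering of the members alone gave 4 sub-clusters, numbered and left unnamed, and their genes describe how the members vary. Sub-cluster 0 (32 treated and 19 control cells) was led by Ccl8 (2673 CPM against 222 in the other members), the lectin Clec10a, the selenium carrier Selenop (1101 against 114), Pmp22 and Ccl7, with Mrc1 at 697 against 205 CPM and Pf4 at 1422 against 327. Sub-cluster 1 (29 and 12 cells) was led by the lectin Clec4e, Slpi, Ly6i, S100a4 and Ccl3, with Il1b at 4155 against 1347 CPM and the monocyte gene Plac8 at 857 against 204. Sub-cluster 2 (11 and 12 cells) was led by the collagenase Mmp13 (1547.5 against 48.7 CPM), Adamdec1, Cadm1, H2-M2 and Atp6v0d2, and every one of its cells held Ccl24 (3183 CPM) and Mmp12 (5121 CPM). Sub-cluster 3 (8 and 10 cells) was led by Ccl17, Ccl22, Serpinb6b, Il1r2 and Ccr7 (827 against 51.2 CPM). Ccl17, Ccl22 and Ccr7 are known from mature dendritic cells, and had a UMI in 44.4%, 44.4% and 55.6% of its cells. The 14 dendritic cell markers summed to 1645 CPM there and to 487 to 677 CPM in the other sub-clusters. Of that list, Fscn1, Xcr1, Cd209a and Siglech had no UMI in any member. The C1qa level of sub-cluster 3 was 384 CPM against 1404 in the others. Its Mrc1 level was 8.27 against 438 and its Adgre1 level 37.2 against 203. Mmp12 was held by 88.9% of its cells, at 1765 against 1578 CPM. By C1qa, Mrc1 and Adgre1, though not by Mmp12, these 18 cells go against the macrophage label. Their median depth was 10991 UMIs beside 3200 to 4878 in the other sub-clusters.

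Within sub-clusters, several of the differences between libraries recurred. The MHC class II list stood at 12658 CPM in treated and 20148 in control cells of sub-cluster 0 (log2 ratio -0.67), 16021 and 30456 in sub-cluster 1 (-0.93), 20732 and 30879 in sub-cluster 2 (-0.57), and 24060 and 26364 in sub-cluster 3 (-0.13, -0.21 to -0.06). The lower class II level was thus present in each, and least in sub-cluster 3. Pf4 was higher in treated cells of all 4, by 3.21, 3.75, 1.03 and 5.50 on the log2 scale, although the control counts in sub-clusters 1 and 3 were 3 and 1 UMIs. Ccl8 stood at 3442 against 1227 CPM in sub-cluster 0 (1.49, 1.13 to 1.86) and 981 against 294 in sub-cluster 2 (1.74, 1.07 to 2.45). Ctsl was higher by 1.41, 2.47 and 1.29 in sub-clusters 0, 1 and 2, with an interval that reaches 0 in sub-cluster 3 (-0.14 to 2.28). Fabp5 was higher in each, by 1.99, 1.31, 0.99 and 1.22.

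Other differences varied in size or direction between sub-clusters. Apoe differed in direction between them. It was lower in treated cells of sub-cluster 0 (2026 against 5005 CPM, -1.30) and sub-cluster 2 (1171 against 3261, -1.48), stood at 503 against 360 CPM in sub-cluster 1 (0.48, -0.18 to 1.19), and was higher in sub-cluster 3 (308 against 14.5 CPM, 4.41, 2.44 to 7.52), where the control value is 2 UMIs. Arg1 stood at 1278 CPM against 3 UMIs (43.2 CPM) in sub-cluster 1, at 25 UMIs against 0 in sub-cluster 0, at 3 UMIs against 0 in sub-cluster 3, and at 669 against 478 CPM in sub-cluster 2 (0.49, -0.12 to 1.11). Cxcl9 stood at 242 against 1845 CPM in sub-cluster 1 (-2.93), at 1082 against 1618 in sub-cluster 2 (-0.58), at 645 against 898 in sub-cluster 3 (-0.48, -0.93 to -0.04), and at -0.57 in sub-cluster 0 with an interval that reaches 0. Ccl7 in sub-cluster 0, which it leads, stood at 2348 against 2056 CPM (0.19, -0.11 to 0.50), and sub-clusters 1, 2 and 3 held 176, 7 and 19 treated UMIs of it and 0 control UMIs. Ccl2 was higher in sub-clusters 0 (0.74), 1 (2.15) and 3 (4.11, on 1 control UMI), and stood at 2 against 6 UMIs in sub-cluster 2. Bsg stood at 167 against 343 CPM in sub-cluster 2 (-1.04, -2.05 to -0.08), and at 0.75, 0.46 and 0.09 in sub-clusters 0, 1 and 3 with intervals that reach 0. Ccl24 in sub-cluster 2, where every cell held it, was at 3011 and 3371 CPM (-0.16, -0.41 to 0.08). The interferon-gamma list was lower in treated cells of sub-clusters 0 (-0.51), 1 (-0.79) and 2 (-0.31) and higher in sub-cluster 3 (6898 against 5752 CPM, 0.26, 0.11 to 0.41). The type I interferon list was lower in sub-cluster 0 (3027 against 7221 CPM, -1.25) and stood at -0.22, -0.06 and 0.08 in the others, with intervals that reach 0. Whether these ratios differ between sub-clusters was not tested.

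**Figure D5:**
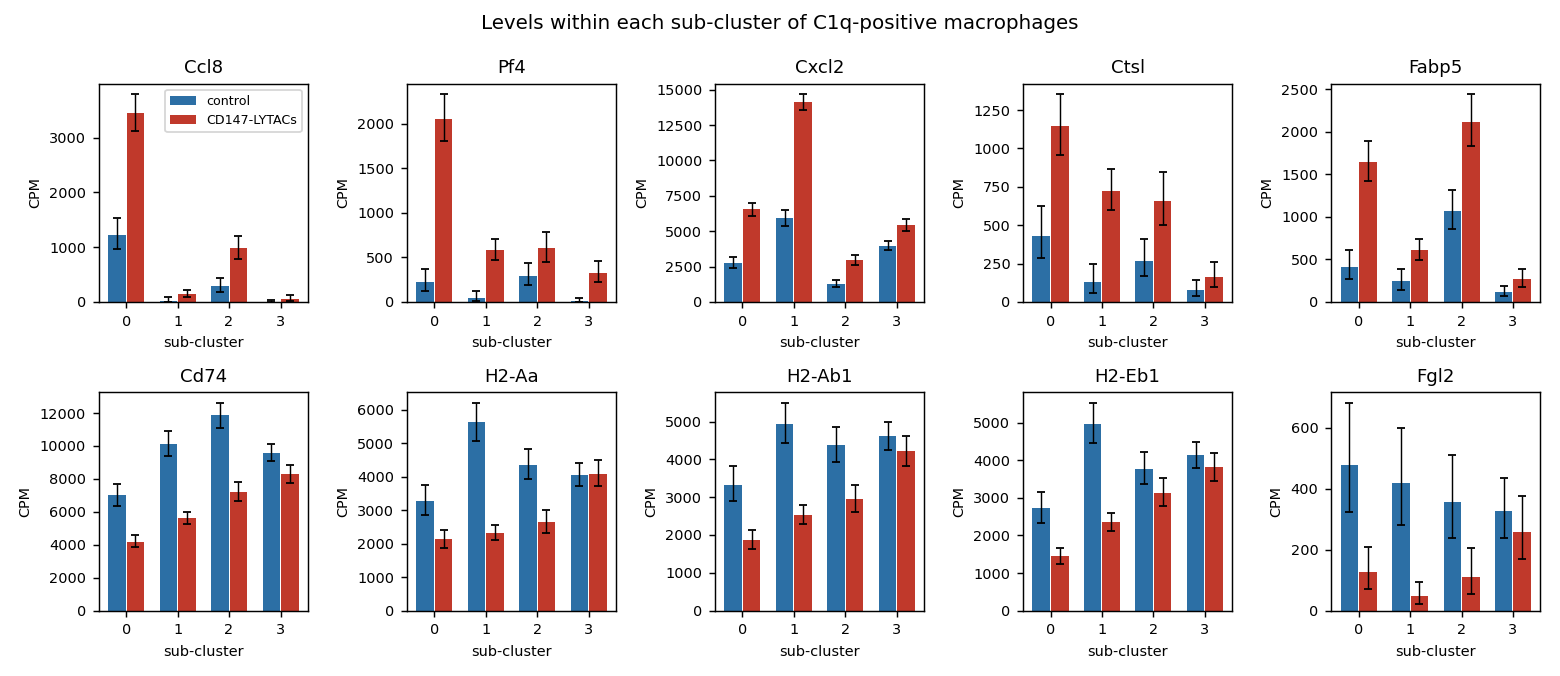
Summed level in CPM (y axis) of 10 genes in control and CD147-LYTACs members of each of the 4 sub-clusters (x axis), with exact 95% Poisson intervals. Pf4 and Fabp5 are higher in treated cells of every sub-cluster, and Cd74 is lower, while H2-Aa, H2-Ab1 and H2-Eb1 overlap between libraries in sub-cluster 3.

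Against lipid-associated cells of the same gate (at least 2 UMIs of Gpnmb, Trem2 and Ctsk, 29 control and 214 treated), 3256 genes were compared in both libraries. At least 2-fold in each, 61 were higher in the members (1.87%) and 70 lower (2.15%). The rule separates these cells by their own transcripts, so the values are a description. Those lower were led by Col3a1, Col1a1, Dcn, Sparc and Col1a2, collagen and matrix genes of fibroblasts, and the fibroblast list summed to 2207 and 3023 CPM in the lipid-associated cells and 14.7 and 28.4 in the members. Few cells carried that sum: 5 of 214 treated and 3 of 29 control lipid-associated cells held at least 5 UMIs of the list. Those higher included the serotonin receptor Htr7 (159 against 32.1 CPM in treated and 213 against 13.4 in control cells), Tmem176b, the decoy receptor Il1r2 (292 against 86.2 and 535 against 73.9) and Ifitm1. Il1r2 stood at 1207 CPM in sub-cluster 3, which goes against the macrophage label, and at 59.7 CPM in the other members. Without members holding dendritic cell transcripts, 22 genes were higher in place of 61.

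The closest cells, lipid-associated cells that also hold at least 3 C1q UMIs (11 control, 72 treated), carried few fibroblast transcripts (24.4 and 29.3 CPM). Against them, Plac8 (426 against 80.9 CPM in treated, 338 against 12.2 in control cells), Zeb1, Htr7 and Ccr7 were higher in the members. Of the members' Ccr7 UMIs, sub-cluster 3, which goes against the macrophage label, gave 147 of 166 treated and 53 of 64 control ones. Apoe (963 against 3038 and 1726 against 6120.1 CPM), Fabp5 (1074 against 3904 and 415 against 2052), the lipase Mgll and Nos2 (50.4 against 249.6 and 205 against 1777 CPM) were lower in the members than in these closest cells. The 27 lipid-associated genes beyond the rule summed to 66747 and 52491 CPM there, and lysosome genes to 35643 and 29617 CPM beside 17446 and 18083 in the members. Ccl8 (1040 and 379 CPM) and Ccl24 (1312 and 446 CPM) were also present in these cells, so neither was confined to the members. The MHC class II list stood at 16828 CPM in treated and 29202 in control cells of this kind, and the chemokine list at 23684 and 11837, the same order as in the members.

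Against monocytes of the gate (fewer than 3 C1q UMIs and at least 3 UMIs of Ly6c2, Plac8 and Ccr2, 104 control and 134 treated), 3330 genes were compared, and 129 were higher in the members (3.87%) and 88 lower (2.64%). Those higher were led by Mmp13, H2-M2, the integrin Itga9, Pf4, Ccl24 (848 against 16 CPM in treated and 1095 against 53.9 in control cells), the adhesion molecule Vcam1 (256 against 12.8 and 586 against 4.28) and Ccl8 (1102 against 65.0 and 290.0 against 0.856). Ms4a7, Lpl and the phosphatase Acp5 followed. Those lower included Ly6c2, which defined the monocytes, and genes of other lineages that the monocyte gate admitted: S100a8, S100a9, Retnlg and Ngp of neutrophils, Siglech and Ccr9 of plasmacytoid dendritic cells and Mcpt1 of mast cells. Resident and perivascular macrophage genes summed to 5029 and 4020.2 CPM in treated and control members and to 802 and 578 CPM in monocytes. The MHC class II list stood at 20144 CPM in treated and 26082 in control monocytes, again in the same order. The make-up of these monocytes differed between the libraries, though. B and plasma cell markers summed to 65.0 CPM in treated and 818 in control monocytes, and neutrophil markers to 12670 and 3242. At least 3 UMIs of the dendritic list were held by 50.7% and 73.1% of them. The part of these other cells in the class II order was not tested.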

How the data were processed

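Single-cell RNA was sequenced from Hepa1-6 tumours in 2 libraries, 1 control and 1 CD147-LYTACs. The deposited matrices hold whole-number UMI counts per gene and cell, made by the authors with Cell Ranger, given as version 3.0.2 on mm10 per the submitters' processing notes and as 7.1.0 per the file headers. The deposited feature and barcode files hold gene names and cell barcodes and no measurement. Of 32285 gene IDs, 99.6% were in GENCODE M21, which gave the positions.

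Members were chosen by the thresholds given above, and their UMIs were summed per library and divided by the members' total (CPM). Ratios carry exact conditional binomial 95% intervals, levels exact Poisson intervals and shares Clopper-Pearson intervals. All cover counting error only, and a count of 0 allows up to 3 UMIs or cells. Genes were counted with at least 100 UMIs over both libraries and 50 CPM in 1, and called past 1.5-fold with an interval leaving out 0. Comparisons with other cells used 2-fold in each library, without the genes of the rule. Sub-clusters came from Leiden clustering at resolution 0.6 (scanpy 1.11.5, leidenalg 0.10.2). Doublets were not removed. In an alternative the highest scores, 0.8% per 1000 cells, were left out (402 control and 535 treated cells, 2 members). Scrublet's own threshold marked 1 control cell, so it was not used. The code recovered known folds in simulated counts that held counting error only. The simulation had no variation between cells, so it does not bear on differences carried by few cells.

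Genes named are those of the rule, the markers, the 15 greatest and 15 smallest ratios, the 12 highest and 12 lowest against each comparison class, up to 4 from each of 36 gene lists, Bsg, Slc16a1, Slc16a3 and Ldha, and 5 leading genes of each sub-cluster. Further list members are named by their count in the list, after their values were seen. Mitochondrial, ribosomal, haemoglobin, immune receptor segment, Xist and Y-linked genes were left out of ranked choices. Members and lists were chosen with earlier results of these data known. The alternatives changed the thresholds, scaling, filters, depth, doublets and cells with markers of other lineages. Those added after seeing the data were leaving out cells with S100a8 and S100a9, with dendritic cell transcripts, or the deepest members, and comparing with lipid-associated cells that hold C1q. Some genes that the rule names are not reported here.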

Additional observations from a re-analysis of the deposited data

How the results depend on the processing

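Across 19 alternatives each, the log2 ratios of Ccl8 (1.08 to 2.15), Pf4 (2.47 to 3.20), Cxcl2 (0.58 to 1.66), Ctsl (1.01 to 2.22), Fgl2 (-2.19 to -1.39), Cd74 (-0.80 to -0.24) and H2-Aa (-0.96 to -0.49) kept their direction, as did the summed MHC class II (-0.75 to -0.36) and chemokine (0.27 to 0.92) lists over 18. Ccl24 ranged from -2.51 to 0.12. Of 797 alternative values for the 42 named genes past the fold, 785 kept their direction. These counts and ranges include alternatives that could not turn the direction of such a gene. Changed counting limits or folds leave each ratio as it is. Changed scaling of the library totals shifts all genes alike, by 0.032 or less on the log2 scale. One alternative left out members with at least 2 UMIs over the T, NK, B, neutrophil and mast cell markers, which left 28 treated and 27 control members. There the share ratio was 0.345 beside 0.502, 35 genes were higher and 31 lower, 32 lay above lipid-associated cells and 239 below monocytes. In that alternative S100a9 (-1.92), S100a8 (-0.33), Soga1 (-0.75), Specc1 (-0.33), Glis3 (2.25), Tex14 (1.12), Snx24 (0.11), Wipf1 (0.36), Rap2a (0.40) and Slc16a3 (0.34) turned direction. Without members holding dendritic cell transcripts, 88 genes were lower, 22 lay above lipid-associated cells and Glis3 was at 1.15. Without members holding S100a8 and S100a9, the neutrophil list was at -0.27. With at least 10 C1q UMIs, 71 genes were higher and 108 lower, Saa3 was at -0.99 and the summed ratio of the monocyte list at -0.023. With no Gpnmb, Trem2 or Ctsk UMI, 39 genes lay above lipid-associated cells, and against those that hold C1q, 23 lay below. Counting from 30 UMIs with no CPM minimum gave 313 higher and 379 lower, from 200 UMIs and 100 CPM 40 and 52, a fold of 2 gave 50 and 49, and thinning to 2000 UMIs 38 and 30. The sub-clusters numbered 3 and 6 at other resolutions. The cause was not tested, except that stricter filters and thinning count fewer genes (715 and 353 of 1569). No paired analysis was possible because each group is 1 library. The depth of 351720 and 476609 UMIs limits the text to genes above about 50 CPM.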

Other observations

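Of 18 counted immediate-early and heat-shock genes, which tissue dissociation is known to raise, Fos (348 against 611 CPM, log2 ratio -0.81) and Btg2 (-0.59) were lower in treated members and none higher, a share close to the 10.4% lower over all genes. Complement genes besides C1q were mixed. The central component C3 (201 against 347 CPM, -0.78) and factor B, Cfb (132 against 208 CPM, -0.65), were lower in treated members, and properdin, Cfp (277 against 173 CPM, 0.68), was higher. Pdcd1lg2, which encodes PD-L2, stood at 164 against 273 CPM (-0.74). Proliferation genes were scarce, with 736 and 952 CPM over 30 genes. Erythroid transcripts had no UMI in any member of either library.

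Ccr7 in sub-cluster 3, the sub-cluster that goes against the macrophage label, stood at 1414 CPM over 8 treated cells and 384 CPM over 10 control cells (log2 ratio 1.88, 1.42 to 2.36). It had a UMI in 4 of those treated and 6 of those control cells, so few cells carried the treated level. Il1b was higher in treated cells of every sub-cluster, by 3.19, 0.41, 4.23 and 1.33 from sub-cluster 0 to 3. The control counts in sub-clusters 0 and 2 were only 6 and 3 UMIs, and 4 of 11 treated cells of sub-cluster 2 held it. In members with at least 10 C1q UMIs, the log2 ratio of Il1b was 0.48, beside 1.08 over all members.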
